A study of Mus musculus with 8 samples.

Results

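The cytochrome P450 genes outside family 1 were followed in mouse lungs after bleomycin, a drug that cuts DNA and is used to model lung fibrosis. Members were all genes whose symbol begins with Cyp and a family number, without the Cyp1a and Cyp1b genes, Cyp2f2 and Cyp51. This rule took 79 of the 18824 genes in the count table, and 5 other Cyp genes were left out by it. The 4 WT_BLM libraries came from lungs of wild-type mice and the 4 KO_BLM libraries from lungs of Slc15a3-/- mice, which lack a lysosomal transporter of histidine and small peptides. Mice of both genotypes were 8 weeks old, were given bleomycin at 2 mg/kg, in 50 µl saline, by the trachea (day 0), and their lungs were taken on day 21. Mice given saline alone were not analysed here, and each difference lies between the genotypes after bleomycin. The labels give neither the strain, nor how the deletion was made, nor the hour of killing, and any difference in these between the groups cannot be told apart from the genotype. Nothing in them says that each library is a different mouse, and p-values therefore reflect only the spread between these libraries, which may be technical.

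Cytochrome P450 enzymes are heme proteins that insert an oxygen atom into lipids, hormones and foreign chemicals, with electrons passed on by P450 reductase, cytochrome b5 or, in mitochondria, ferredoxin. The family number groups enzymes by sequence and, loosely, by task. Families 2 and 3 act mostly on drugs and other foreign compounds, family 4 on fatty acids and eicosanoids, and the higher-numbered families on sterols, bile acids, steroid hormones, retinoic acid and vitamin D. In lung these enzymes are known mainly from club cells and alveolar type 2 cells, which oxidise inhaled compounds.

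Library totals ran from 17627999 to 20180831 counts. The deleted gene was nearly absent from the knockout libraries, with Slc15a3 counts of 841 to 1124 in WT_BLM and of 5 to 18 in KO_BLM. The groups differed widely. Of 14746 genes tested with edgeR, 41.5% passed an adjusted p of 0.05, with 20.7% higher and 20.8% lower in KO_BLM, and for 40.9% the levels in CPM (read counts scaled to library depth) did not overlap between the groups. The labelled tissue was checked on lung markers, and summed alveolar type 2 markers reached 9149 to 13450 CPM in WT_BLM and 23535 to 36216 CPM in KO_BLM. In bulk tissue, fewer cells of a type and less RNA per cell cannot be told apart.

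Of the 79 members, 27 had enough counts to be tested and 52 did not. The tested members held at least 99.6% of all member counts in each library, and 25 of the untested genes had at most 3 counts over all 8 libraries. Among the tested members 11 were higher in KO_BLM and 3 were lower by the edgeR test, and 13 did not pass. The share higher, 40.7%, stands beside 20.7% of all genes, and the share lower, 11.1%, beside 20.8%. The median log2 fold change of the tested members was 0.40, and that of all tested genes was 0.0025. For 10 members every knockout library lay above every wild-type library, and for 3 every one lay below, together 48.1% of the tested members beside 40.9% of all genes. The 11 higher members include Cyp8b1, the sole gene of family 8, which passed the filter on low counts mainly through the knockout libraries, where it is high. The counts and shares above are therefore descriptions. The increases fell in families 2, 4, 8, 27 and 39, and the decreases in families 4, 7 and 46.

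**Figure D1:**
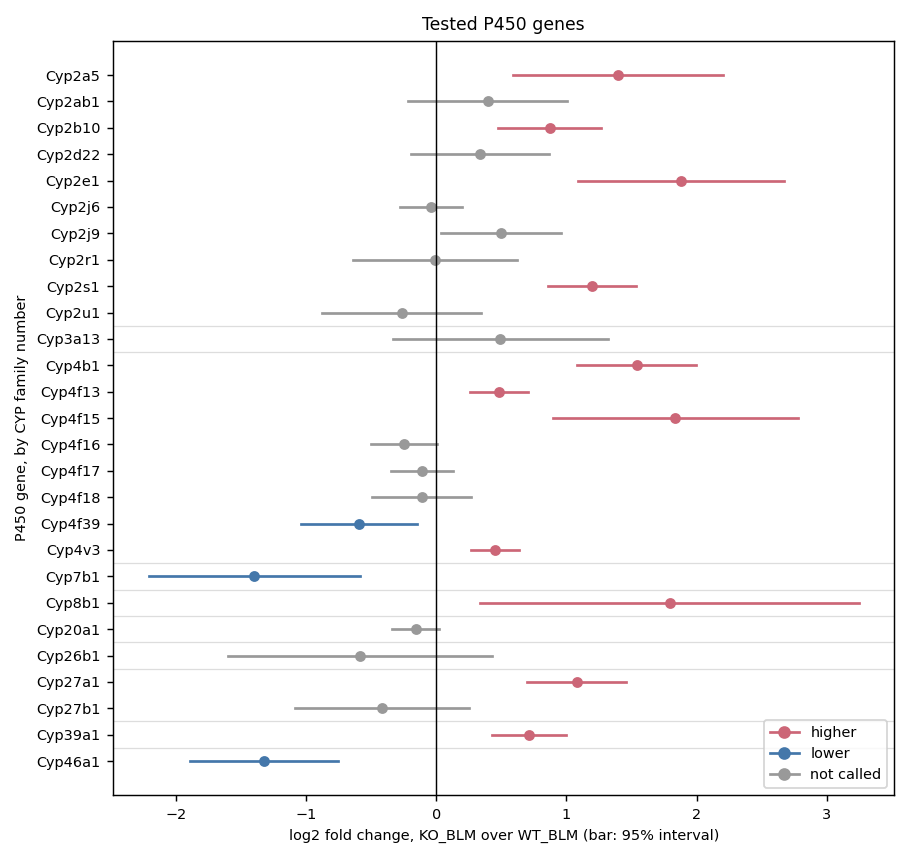
Log2 fold change of KO_BLM over WT_BLM for each of the 27 tested members, with the edgeR 95% interval, grouped by CYP family. Colour gives the call, and Cyp2e1 at 1.88 and Cyp7b1 at -1.40 mark the ends of the called values.

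Family 2 is the largest, with 40 members of which 10 were tested. Cyp2s1, Cyp2b10, Cyp2a5 and Cyp2e1 rose and none fell, and the median log2 fold change of the 10 was 0.45. Cyp2s1, a P450 of epithelia outside the liver, measured 81.7, 95.2, 91.3 and 63.2 CPM in the WT_BLM libraries and 159, 211, 167 and 221 CPM in the KO_BLM libraries. The groups lay far apart, and the log2 fold change was 1.19 (SE 0.15, edgeR adjusted p = 0.000382), a 2.29-fold rise. Cyp2b10, the classic mouse gene induced by phenobarbital through the receptor CAR, measured 190, 119, 119 and 200 CPM in WT_BLM and 266, 306, 274 and 303 CPM in KO_BLM. It rose 1.83-fold (log2 0.87, SE 0.18, edgeR adjusted p = 0.00409), and the wild-type libraries spread more widely than the knockout ones.

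Cyp2a5, which oxidises coumarin and nicotine, measured 13.1, 8.68, 9.05 and 8.93 CPM in WT_BLM and 14.2, 20.4, 19.7 and 50.5 CPM in KO_BLM. The fourth knockout library stood above all others, and the first knockout library lay close to the first wild-type library. The log2 fold change was 1.40 (SE 0.36, edgeR adjusted p = 0.0126), and it was 0.86 without KO_BLM replicate 4. Of the 50-base stretches of Cyp2a5 transcripts, 37.0% also occur in other genes, mostly Cyp2a4, so its reads may be shared with that copy. Cyp2a4 itself had 9 counts summed over WT_BLM and 6 over KO_BLM, beside 747 and 1969 for Cyp2a5. Cyp2e1, which oxidises ethanol and small solvents, was scarce, with 0.660, 1.74, 1.45 and 2.07 CPM in WT_BLM and 3.86, 6.86, 3.86 and 7.25 CPM in KO_BLM. Every knockout library exceeded every wild-type library, and its log2 fold change, 1.88 (SE 0.35, edgeR adjusted p = 0.00286), was the highest of the tested members.

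The other 6 tested genes of family 2 did not pass. Cyp2d22, a relative of the human drug oxidase CYP2D6, had 39.9 to 72.4 CPM in WT_BLM and 49.3 to 101 CPM in KO_BLM, with a log2 difference of 0.34 (95% interval -0.19 to 0.87). Cyp2j9, of a subfamily that oxidises arachidonic acid, had 2.98 to 4.82 CPM against 4.17 to 5.95 CPM, and a log2 difference of 0.50 with an edgeR adjusted p of 0.0773. That p was 0.0331 without WT_BLM replicate 3, and the gene passed in 6 of 18 alternatives in all. Its relative Cyp2j6 lay at 15.4 to 20.3 CPM in WT_BLM and 16.5 to 18.2 CPM in KO_BLM, and the log2 difference of -0.04 had an interval of -0.28 to 0.20. Cyp2r1, the liver enzyme for the initial step of vitamin D activation, had a log2 difference of -0.01 (interval -0.64 to 0.62). Cyp2u1, a fatty acid hydroxylase, and Cyp2ab1 were near 1 to 2 CPM, with log2 differences of -0.26 (interval -0.88 to 0.35) and 0.40 (interval -0.22 to 1.01). None of the 12 Cyp2c genes, the main arachidonic acid epoxygenases and drug oxidases of liver, was tested. The most counted of them, Cyp2c23, had 6, 8, 5 and 3 counts in WT_BLM and 11, 11, 12 and 9 counts in KO_BLM.

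Cyp2s1, Cyp2b10 and Cyp2a5 lie in a single cluster of 12 members at chr7:25802469-27158564 (GRCm38.p6, the mm10 build of the files), where they are the only tested members. In the promoters of RefSeq on that build, 7 motifs were searched on both strands from 250 bases before to 50 bases after each start. They were the TATA box (letters TATAAA), the CCAAT box, the E-box (letters CACGTG), the D-box (letters TTATGNAA), the core of nuclear receptor sites (letters AGGTCA), the site of NKX2-1 (letters CAAGTG) and the site of FOXA factors (letters TGTTTAC), and 22 of the 27 tested members had a promoter in the table. The D-box is the element bound by the clock-controlled factors DBP, TEF and HLF. The letters searched for it, with any base at N, occur in 3.38% of all 32851 promoters. Among tested members they occurred in Cyp2a5, Cyp2b10 and Cyp27a1. These are 3 of the 10 higher genes with a promoter, beside 0 of 2 lower genes and 0 of 10 genes that did not pass. The TATA box likewise occurred in 3 of 10 higher, 0 of 2 lower and 1 of 10 not called, the CCAAT box in 5, 1 and 8, and the NKX2-1 site in 1, 0 and 4. The E-box occurred in 1, 0 and 1, the nuclear receptor core in 1, 0 and 0, and the FOXA site in 0, 0 and 1. No motif was tested for a link to the calls. The 3 genes with D-box letters are shown because Dbp and Tef, whose products bind the D-box, are described below. Both factors were named after their values were seen. They were called lower in KO_BLM, Dbp not in every alternative, while these 3 genes were called higher. Below are the 250 bases before the promoter start of these 3 genes, then those of Cyp4b1, the most abundant member, and of Cyp46a1, which fell. Capitals mark every match to a searched motif, and no match overlaps another in these stretches. All are written 5′ to 3′ on the strand of the gene.
Cyp2a5: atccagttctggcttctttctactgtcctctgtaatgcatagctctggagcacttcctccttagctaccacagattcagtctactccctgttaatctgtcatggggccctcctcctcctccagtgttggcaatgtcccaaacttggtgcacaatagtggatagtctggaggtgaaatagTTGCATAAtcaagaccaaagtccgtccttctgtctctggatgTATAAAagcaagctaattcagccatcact
Cyp2b10: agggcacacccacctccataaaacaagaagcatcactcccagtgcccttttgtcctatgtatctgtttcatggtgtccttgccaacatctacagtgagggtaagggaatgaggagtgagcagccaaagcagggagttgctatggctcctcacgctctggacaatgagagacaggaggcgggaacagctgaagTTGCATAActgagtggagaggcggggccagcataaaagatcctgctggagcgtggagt
Cyp27a1: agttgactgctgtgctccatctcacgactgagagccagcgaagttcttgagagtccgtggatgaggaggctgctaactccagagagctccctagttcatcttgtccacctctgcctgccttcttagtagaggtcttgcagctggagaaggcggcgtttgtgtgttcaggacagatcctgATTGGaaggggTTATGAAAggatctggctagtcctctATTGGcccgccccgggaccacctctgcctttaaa
Cyp4b1: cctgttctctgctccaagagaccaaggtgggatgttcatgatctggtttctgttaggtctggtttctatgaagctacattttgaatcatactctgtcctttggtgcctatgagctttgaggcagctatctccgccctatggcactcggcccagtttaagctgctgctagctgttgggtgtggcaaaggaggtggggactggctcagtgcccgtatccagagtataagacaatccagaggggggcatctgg
Cyp46a1: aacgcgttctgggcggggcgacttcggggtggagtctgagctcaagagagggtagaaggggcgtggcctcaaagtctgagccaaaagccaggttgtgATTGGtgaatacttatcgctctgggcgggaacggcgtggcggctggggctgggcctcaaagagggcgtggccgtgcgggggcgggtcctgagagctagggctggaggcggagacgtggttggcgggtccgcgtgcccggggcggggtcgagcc
The stretches are chr7:26835089-26835338 for Cyp2a5, chr7:25897408-25897657 for Cyp2b10 and chr1:74713285-74713534 for Cyp27a1, all on the plus strand. They are chr4:115647722-115647971 on the minus strand for Cyp4b1 and chr12:108334066-108334315 on the plus strand for Cyp46a1. Each start is that of the promoter record. The gene records of Cyp27a1 and Cyp46a1 begin earlier, at chr1:74713148 and chr12:108334268. The printed stretch therefore lies wholly inside the listed Cyp27a1 gene and partly inside the listed Cyp46a1 gene.

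The D-box letters are the same in Cyp2a5 and Cyp2b10 (TTGCATAA, read on the strand shown) and begin 71 and 58 bases before the start. In Cyp27a1 they read TTATGAAA and begin 60 bases before the start of its promoter record. The free letter N is thus A in Cyp27a1, and it is C in Cyp2a5 and Cyp2b10 on the opposite strand. Whether DBP, TEF or HLF bind either form was not tested. Cyp2a5 also holds TATAAA, 29 bases before its start, a motif of 13.6% of all promoters. Cyp27a1 holds CCAAT on the opposite strand at 2 places, a motif of 37.4% of all promoters. The Cyp4b1 stretch holds none of the searched motifs. The Cyp46a1 promoter stands apart in composition, with 70.3% GC and 31 CpG pairs in the window of 300 bases, where the median promoter has 52.7% and 7. Such matches describe the letters, and the data hold no measure of binding.

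Family 4 has 17 members, of which 8 were tested, 4 were higher and 1 was lower, with a median log2 fold change of 0.17. Cyp4b1, a lung P450 known for turning the plant toxin ipomeanol into its reactive form, measured 243, 190, 166 and 168 CPM in WT_BLM and 727, 637, 488 and 379 CPM in KO_BLM. It was the most abundant member per length, at 97.0 ± 17.9 FPKM (SD, n = 4) in WT_BLM and 298 ± 75.5 FPKM (SD, n = 4) in KO_BLM. The groups were far apart although the knockout libraries spread over a wide range, and the rise was 2.91-fold (log2 1.54, SE 0.20, edgeR adjusted p = 0.000486). Summed alveolar type 2 markers were 9149 to 13450 CPM in WT_BLM and 23535 to 36216 CPM in KO_BLM, and their part in the rise of Cyp4b1 was not tested.

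**Figure D2:**
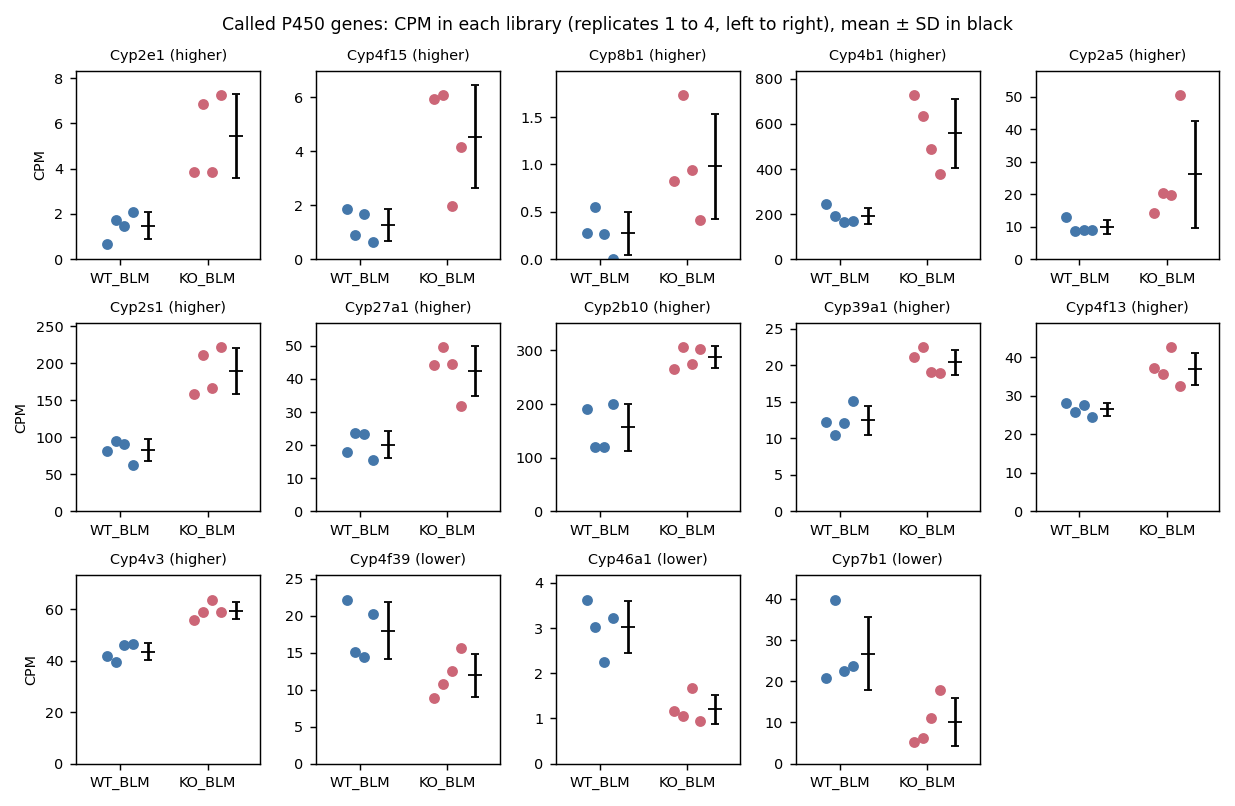
CPM of the called members in each library, with a panel and a linear axis for each gene and WT_BLM and KO_BLM side by side. The groups are apart for most genes, as for Cyp4b1 at 166 to 243 against 379 to 727 CPM, and overlap for Cyp4f39 and Cyp8b1.

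Cyp4v3, which hydroxylates the end of medium-chain fatty acids, measured 42.0, 39.5, 46.0 and 46.5 CPM in WT_BLM and 55.8, 59.1, 63.8 and 58.9 CPM in KO_BLM. The rise was small but the libraries of each group lay close together (1.37-fold, log2 0.45, SE 0.082, edgeR adjusted p = 0.00239). Cyp4f13, of the subfamily that inactivates leukotrienes and hydroxylates fatty acids, had 28.2, 25.8, 27.6 and 24.4 CPM in WT_BLM and 37.3, 35.6, 42.6 and 32.6 CPM in KO_BLM. It too rose little and evenly, by 1.40-fold (log2 0.48, SE 0.099, edgeR adjusted p = 0.00442). Cyp4f15 was scarce, at 1.87, 0.893, 1.66 and 0.654 CPM in WT_BLM and 5.95, 6.08, 1.98 and 4.17 CPM in KO_BLM. The third knockout library lay just above the first wild-type library, and the rise was 3.57-fold (log2 1.84, SE 0.42, edgeR adjusted p = 0.00735).

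Cyp4f39, the mouse form of a fatty acid hydroxylase of the skin barrier, went the other way. It measured 22.2, 15.1, 14.4 and 20.3 CPM in WT_BLM and 8.81, 10.7, 12.6 and 15.6 CPM in KO_BLM, and the groups overlapped. Its log2 fold change was -0.59 (SE 0.20, edgeR adjusted p = 0.0378). The call did not hold without WT_BLM replicate 1 (0.107) or 4 (0.0818), nor without KO_BLM replicate 1 (0.0874), 2 (0.101) or 3 (0.0673), all edgeR adjusted p. It was also lost with library totals alone (edgeR adjusted p = 0.0774) and in the 3 limma fits on FPKM (adjusted p 0.0685 to 0.0967). Cyp4f16 had 31.5 to 43.5 CPM in WT_BLM and 28.7 to 36.1 CPM in KO_BLM (log2 -0.25, edgeR adjusted p = 0.107, 0.0207 without WT_BLM replicate 4, and 0.0178 with limma-voom). Cyp4f17 and Cyp4f18, the latter a leukotriene hydroxylase of neutrophils, both had a log2 difference of -0.11, with edgeR adjusted p of 0.440 and 0.625. Within the cluster of 8 Cyp4f genes at chr17:32452697-32947415, 2 of the 5 tested neighbours thus rose and 1 fell. The 5 Cyp4a genes, the peroxisome-proliferator-induced fatty acid hydroxylases of liver and kidney, were not tested.

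The only tested gene of family 3 was Cyp3a13, of the main drug-oxidising subfamily of liver and gut. It measured 2.42, 0.942, 2.09 and 3.21 CPM in WT_BLM and 4.52, 3.01, 2.66 and 1.98 CPM in KO_BLM, and the groups overlapped. The log2 difference was 0.49 (interval -0.33 to 1.32, edgeR adjusted p = 0.308). The other 4 genes of the family were too low to test.

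The sterol and bile acid enzymes moved in both directions. Cyp27a1, the mitochondrial enzyme that hydroxylates the side chain of cholesterol, measured 17.9, 23.6, 23.4 and 15.4 CPM in WT_BLM and 44.3, 49.5, 44.4 and 31.8 CPM in KO_BLM. All knockout libraries were above the wild-type libraries, a 2.11-fold rise (log2 1.08, SE 0.17, edgeR adjusted p = 0.00119). Cyp39a1, which hydroxylates oxysterols on the way to bile acids, measured 12.2, 10.4, 12.1 and 15.1 CPM in WT_BLM and 21.2, 22.4, 19.1 and 18.9 CPM in KO_BLM. It rose 1.64-fold, again without overlap (log2 0.71, SE 0.13, edgeR adjusted p = 0.00228).

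Cyp7b1, the other main oxysterol hydroxylase, fell. It measured 20.8, 39.8, 22.6 and 23.6 CPM in WT_BLM and 5.34, 6.19, 11.1 and 17.9 CPM in KO_BLM, which is -1.40 on the log2 scale (SE 0.36) at an edgeR adjusted p of 0.0131. The second wild-type library was the highest, and the groups did not overlap. Ch25h, whose product is a substrate of CYP7B1, also fell, from a mean of 61.5 to 13.7 CPM (log2 -2.16, edgeR adjusted p = 0.000463). Markers of monocyte-derived macrophages fell in 8 of 8 tested genes, and their summed level was 7180 to 8784 CPM in WT_BLM and 1093, 1342, 3554 and 3344 CPM in the KO_BLM libraries. Their part in the falls of Cyp7b1 and Ch25h was not tested.

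Cyp46a1, the cholesterol hydroxylase best known from neurons, measured 3.63, 3.03, 2.25 and 3.21 CPM in WT_BLM and 1.16, 1.06, 1.67 and 0.939 CPM in KO_BLM. The groups did not overlap, and the log2 fold change was -1.32 (SE 0.26, edgeR adjusted p = 0.0033). Cyp8b1, the liver enzyme that directs bile acid synthesis to cholic acid, rested on few reads, with counts of 5, 11, 5 and 0 in WT_BLM and 15, 31, 18 and 8 in KO_BLM. It passed the filter on low counts mainly through the knockout libraries. The groups overlapped, and its log2 fold change of 1.79 (SE 0.65) just passed, at an edgeR adjusted p of 0.0497. Without WT_BLM replicate 1, 3 or 4 that p was 0.0984, 0.0968 and 0.0660. Without KO_BLM replicate 1, 2 or 3 it was 0.0691, 0.148 and 0.0821, and with no filter on low counts 0.0554. On leaving out WT_BLM replicate 2 the log2 fold change was 2.38. Cyp7a1, which starts the main liver route to bile acids, was not tested.

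Retinoic acid, vitamin D and orphan enzymes did not pass. Cyp26b1, which breaks down retinoic acid, scattered widely within each group, at 47.2, 23.8, 87.9 and 37.7 CPM in WT_BLM and 28.0, 37.8, 11.9 and 53.3 CPM in KO_BLM. Its log2 difference of -0.58 had an interval of -1.60 to 0.43. Cyp27b1, the mitochondrial enzyme for the final step of vitamin D activation, had 0.643 to 0.935 CPM in WT_BLM and 0.469 to 0.781 CPM in KO_BLM, with a log2 difference of -0.41 (edgeR adjusted p = 0.286). Cyp20a1, with no settled substrate, had 35.9 to 42.1 CPM against 32.6 to 35.6 CPM. Every knockout library was below the wild-type libraries, but the log2 difference of -0.16 did not pass (edgeR adjusted p = 0.148).

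The steroid hormone families 11, 17, 19 and 21 and the vitamin D family 24 had no tested member. Among the 52 untested genes, Cyp21a1 was the only one to pass in edgeR when the filter on low counts was dropped, and it was singled out after its values were seen. The limma fits on FPKM without a filter also called Cyp2c23, Cyp2c55 and Cyp17a1 higher, and with 0.1 added Cyp4f40, all of which rest on few counts. Cyp21a1, an adrenal steroid hydroxylase, had counts of 17, 10, 11 and 15 in WT_BLM and of 0, 0, 2 and 2 in KO_BLM. The sums of 53 and 4 counts have exact Poisson intervals of 39.7 to 69.3 and 1.09 to 10.2, which cover counting error only. Scaled for library size, the ratio was 13.1 (interval 4.82 to 49.8), and the edgeR adjusted p without the filter was 0.00193. The gene lies at chr17:34801348-34804426, where it overlaps the pseudogene Tnxa on the other strand, and 21.3% of its 50-base stretches occur in other genes, mostly Cyp21a2-ps. Whether the counting used strand is not given in the sources used here. Cyp11a1, which opens steroid synthesis by cutting the cholesterol side chain, had 9, 10, 5 and 3 counts in WT_BLM and 9, 7, 14 and 10 in KO_BLM.

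Summed per length over all 79 members, the level was 396, 341, 338 and 339 FPKM in WT_BLM and 754, 766, 666 and 660 FPKM in KO_BLM. The means of 353 ± 28.5 and 711 ± 56.3 FPKM (SD, n = 4 each) differ 2.01-fold, which is given as a description. Cyp4b1 alone held 30.6%, 29.1%, 25.3% and 24.2% of the sum in WT_BLM and 50.4%, 44.05%, 39.7% and 31.9% in KO_BLM. Without it the sums were 256 ± 13.8 and 413 ± 33.2 FPKM (SD, n = 4 each), a 1.61-fold difference. Cyp4b1, Cyp2b10 and Cyp2s1 together made up 54.1 to 62.7% of the sum in WT_BLM and 71.5 to 77.3% in KO_BLM.

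**Figure D3:**
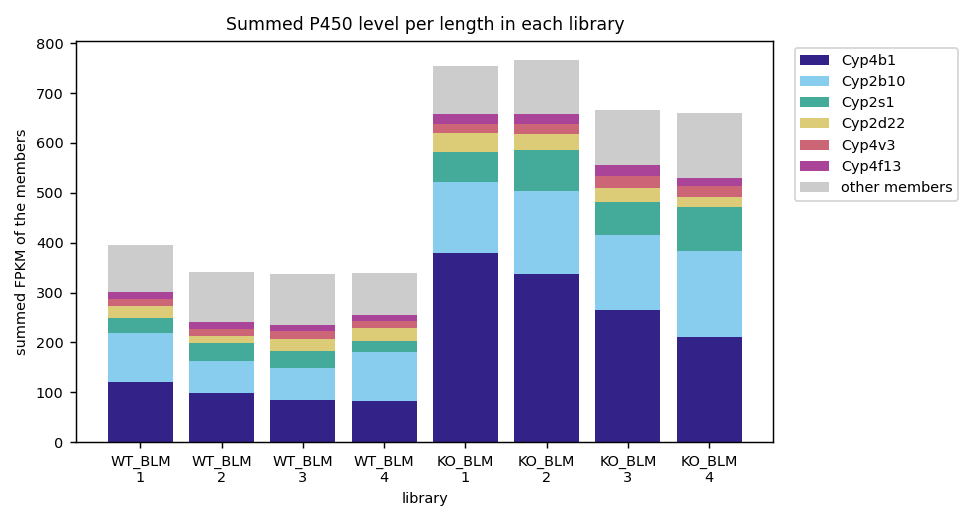
FPKM summed over the 79 members in each library, split into the most abundant genes and the rest. WT_BLM bars reach 338 to 396 FPKM and KO_BLM bars 660 to 766 FPKM, and the Cyp4b1 part is larger in each KO_BLM bar.

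Markers of many cell types differed between the groups. Their counts are to be read beside 20.7% higher and 20.8% lower over all genes. Alveolar type 2 markers rose in 9 of 10 tested genes, club and goblet markers in 5 of 10 and ciliated markers in 8 of 8. Alveolar type 1 markers rose in 2 of 8, near the share over all genes, with a median log2 fold change of 0.028. None of these markers fell by the edgeR test. T and NK cell markers rose in 6 of 6 and B cell markers in 4 of 4, with the highest median log2 fold changes among lists of 4 or more tested genes (2.30 and 1.84). Endothelial markers rose in 6 of 8 and fell in 1. Fibroblast markers fell in 4 of 8 and rose in 3, smooth muscle markers fell in 3 of 5, and alveolar macrophage markers rose in 3 of 8 and fell in 3. Monocyte-derived macrophage markers fell in 8 of 8, as given above, and the 1 tested adipocyte marker rose. Summed club and goblet markers were 3651 to 10168 CPM in WT_BLM and 12151 to 22979 CPM in KO_BLM, and ciliated markers 1186 to 1272 CPM against 2066 to 2380 CPM. Single genes made up most of these sums. Scgb1a1 of the club and goblet list had means of 5969 CPM in WT_BLM and 15442 CPM in KO_BLM. Sec14l3 of the ciliated list had means of 1041 and 1679 CPM. Cyp2f2, the club cell P450 left out by the rule, had a log2 fold change of 2.19 (edgeR adjusted p = 0.00132). Of 5 tested hepatocyte markers 1 rose and 1 fell, which is near the shares over all genes. Their sums were 9.27 to 19.6 CPM in WT_BLM and 9.76 to 16.6 CPM in KO_BLM. No marker of these lists was at 0 in all libraries, and the part of these markers in the P450 values was not tested.

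Lists of genes that serve or regulate P450 enzymes are given as counts, to be read beside 20.7% higher and 20.8% lower over all genes. Of 11 tested electron donors 2 rose and 2 fell, which is near those shares. Por, the reductase that feeds the microsomal P450 enzymes, had 178, 146, 150 and 166 CPM in WT_BLM and 219, 237, 179 and 128 CPM in KO_BLM. The fourth knockout library was the lowest of all, and the log2 difference of 0.25 did not pass (edgeR adjusted p = 0.253, 0.0280 without KO_BLM replicate 4, and 0.0349 with limma-voom). Cyb5a, cytochrome b5, rose from a mean of 149 to 209 CPM (log2 0.49, edgeR adjusted p = 0.00232), and its reductase Cyb5r3 fell from 549 to 386 CPM (log2 -0.51, edgeR adjusted p = 0.00523). In heme synthesis 4 of 9 tested genes rose and 1 fell, among them Uros, from 7.56 to 17.6 CPM (edgeR adjusted p = 0.00307). In heme breakdown 3 of 4 fell and none rose. Hmox1, the inducible heme oxygenase, fell from 142 to 58.6 CPM (log2 -1.27, edgeR adjusted p = 0.00502).

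Among 18 tested nuclear receptors that act on Cyp genes, 3 rose and 3 fell. Nr1h3, the oxysterol receptor LXR alpha, rose from 35.1 to 61.2 CPM (edgeR adjusted p = 0.00842), and Ppara, a fatty acid receptor, from 2.79 to 5.46 CPM (edgeR adjusted p = 0.0129). Vdr, the vitamin D receptor, fell from 16.2 to 8.31 CPM (edgeR adjusted p = 0.000507). Of 15 clock and D-box factors, 3 rose and 7 fell. Tef measured 274, 233, 206 and 294 CPM in WT_BLM and 175, 162, 200 and 110 CPM in KO_BLM, without overlap (log2 -0.64, edgeR adjusted p = 0.0175). Dbp measured 41.9, 78.1, 29.0 and 20.04 CPM in WT_BLM and 7.05, 13.5, 31.1 and 5.58 CPM in KO_BLM, with overlap (log2 -1.56, edgeR adjusted p = 0.0456). The Dbp call did not hold on leaving out WT_BLM replicate 1, 2 or 3, or on leaving out KO_BLM replicate 1, 2 or 4 (edgeR adjusted p 0.0526 to 0.123). It was lost in 10 of 18 alternatives in all, and without KO_BLM replicate 3 its log2 fold change was -2.28. Npas2, an activator of the clock, rose from 4.10 to 17.0 CPM (edgeR adjusted p = 0.000246), and Per2, a clock repressor, fell from 72.0 to 30.3 CPM (edgeR adjusted p = 0.000498). These factors oscillate over the day, so a difference in the hour of killing cannot be told apart from the genotype. Por, Dbp, Tef and Lrat were named after their values were seen.

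**Figure D4:**
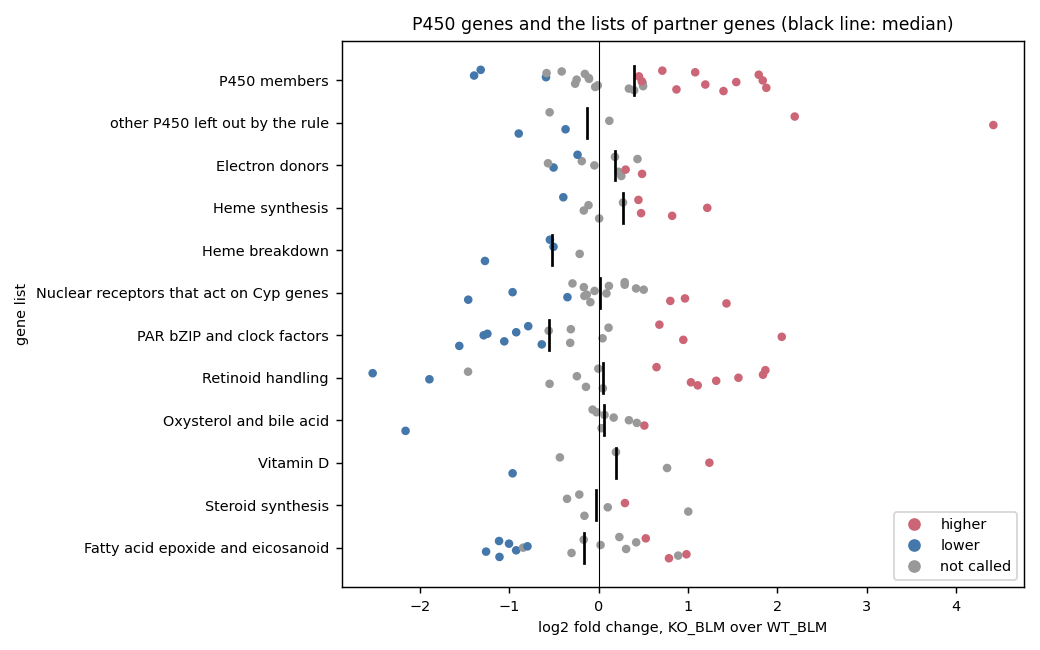
Log2 fold change of KO_BLM over WT_BLM for each tested P450 member and each tested gene of the partner lists. These lists hold genes that serve, regulate or share pathways with P450 enzymes, or P450 genes left out by the rule. Colour gives the call, and a black line gives the median of each list. Heme breakdown has 3 of 4 lower, and retinoid handling has 7 of 15 higher.

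In retinoid handling 7 of 15 tested genes rose and 2 fell. Aldh1a1, which makes retinoic acid and also marks club cells, rose from 459 to 940 CPM, Dhrs3, which returns retinal to retinol, from 72.4 to 156 CPM, and Lrat, which stores retinol as esters, from 9.71 to 35.4 CPM (edgeR adjusted p 0.000219, 0.00157 and 0.00492). Aldh1a3, another retinoic acid maker, and Crabp2, a carrier of retinoic acid, fell, with log2 fold changes of -1.90 and -2.53 (edgeR adjusted p 0.0014 and 0.000648). In the oxysterol and bile acid list 1 of 9 rose and 1, Ch25h, fell. In the vitamin D list 1 of 5 rose, the uptake receptor Lrp2 (log2 1.24, edgeR adjusted p = 0.00105), and 1 fell, Vdr. In steroid synthesis 1 of 6 rose and none fell.

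Of 17 tested genes of fatty acid epoxides and eicosanoids, 3 rose and 6 fell. The epoxide hydrolases split, with Ephx1, which acts on foreign epoxides, rising from 162 to 280 CPM (edgeR adjusted p = 0.00216) and Ephx2, which acts on fatty acid epoxides, falling from 6.96 to 3.22 CPM (edgeR adjusted p = 0.00576). Alox5, which starts leukotriene synthesis, and Ptgs1, a prostaglandin synthase, fell, with log2 fold changes of -1.26 and -1.01 (edgeR adjusted p 0.000253 and 0.00145). Tbxas1, thromboxane synthase, is a P450 by structure that the rule does not take. It fell from 38.5 to 20.7 CPM (log2 -0.90, edgeR adjusted p = 0.0324), and that call did not hold on leaving out WT_BLM replicate 1, 2 or 3, or KO_BLM replicate 2 (edgeR adjusted p 0.0555 to 0.0886), and was lost in 7 of 17 alternatives in all. Ptgis, prostacyclin synthase, is likewise a P450, and its log2 fold change was -0.37 (edgeR adjusted p = 0.0497). Its call did not hold when any 1 of the 4 WT_BLM libraries was left out, or KO_BLM replicate 2, 3 or 4 (edgeR adjusted p 0.0581 to 0.105), and was lost in 13 of 18 alternatives in all.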

How the data were processed

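RNA was extracted with TRIzol and made into stranded polyadenylated libraries, per the labels' protocols. The read counts that the authors deposited are whole numbers per gene, without normalization. They also deposited FPKM values, of which 100% (within 1e-06) equalled the count over the column total and a single length per gene. Cufflinks, DESeq, HTSeq, Trimmomatic and the mm10 build are named in the submitters' processing notes. Which aligner, annotation and strand setting were used is not given in the sources used here. Overlapping genes and near-identical copies may therefore share reads.

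Counts were tested over all 14746 genes that passed filterByExpr (minimum count 10, minimum total 15) with edgeR 4.0.16 in R 4.3.3 (TMM, robust quasi-likelihood F test, Benjamini-Hochberg at 0.05). Biological variation (edgeR's coefficient) was 16.6%. Each standard error is the absolute log2 fold change divided by the root of F. CPM values use TMM-scaled library sizes. Replicates differed by more than counting noise (ratio of chi-square to its degrees of freedom 7.24 to 55.7), and all 8 libraries counted. In KO_BLM this ratio was 7.24 for replicates 1 and 2 and 18.3 for replicates 3 and 4. Across these KO_BLM pairs it was 26.7 to 48.2, and within WT_BLM it was 15.1 to 55.7. The KO_BLM pairs were picked after their values were seen. Depth of 17627999 to 20180831 counts per library makes genes of a few counts imprecise. The steps were tested on simulated data.

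Members, lists and rules were chosen with earlier results of these data known. Described singly were called members and tested members with at least 1 CPM in a group, and from each partner list up to 6 genes by smallest p and then abundance, of which some are not reported. Por, Dbp, Tef and Lrat fall outside that rule, as do Cyp21a1, Cyp2c23, Cyp2c55, Cyp17a1, Cyp4f40, Cyp11a1 and Cyp27b1. Other settings tried were normalization by RLE or by library totals alone, testing with no filter or with 1 CPM required in 4 libraries, DESeq2 1.42.0, and limma-voom (limma 3.58.1) with quality weights. FPKM was also tested with limma after adding 1 (for all genes or those above 1 FPKM) or 0.1 and taking log2. A block for the replicate number and the omission of each library completed them.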

Additional observations from a re-analysis of the deposited data

Results flagged for a closer look

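In 5 of 54 groups of 4 libraries checked, 1 library lay far from the other 3, where chance gives about 1 in 20. Cyp2a5 had 13.1 CPM in WT_BLM replicate 1, against 8.68 to 9.05 CPM in the others, and 50.5 CPM in KO_BLM replicate 4, against 14.2 to 20.4 CPM. Cyp7b1 had 39.8 CPM in WT_BLM replicate 2, against 20.8 to 23.6 CPM. Cyp20a1 had 42.1 CPM in WT_BLM replicate 1, against 35.9 to 36.8 CPM. Cyp27b1 had 0.781 CPM in KO_BLM replicate 2, against 0.469 to 0.521 CPM.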

How the results depend on the processing

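Of the 14 called members, 12 held in every alternative run, and Cyp4f39 and Cyp8b1 were the exceptions, lost in 9 of 18 and 7 of 16. Of the 13 members not called, 9 kept their direction and side of the threshold in each, and Cyp2j9, Cyp4f16, Cyp2j6 and Cyp2r1 did not. Over the alternatives 10 to 16 members were higher and 2 to 4 lower. Leaving out each library gave 10 to 12 members higher and 2 to 4 lower, 4 to 5 higher in family 2, and 4 higher and 0 to 1 lower in family 4. Over all genes it gave 2316 to 2957 higher and 2178 to 2896 lower. In family 2, 7 genes were higher with limma on log2(FPKM + 1) and on log2(FPKM + 0.1), which include Cyp2c23 and Cyp2c55, too low for the edgeR filter. In family 4, 0 were lower with library totals alone and with the 3 fits on FPKM, and 2 with limma-voom. Cyp2c23 passed without WT_BLM replicate 2 (edgeR adjusted p = 0.0421). Other causes were not tested.

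The log2 difference of Cyp2j6 turned positive with library totals alone (0.044), log2(FPKM + 1) without (0.032) and with the filter (0.032), log2(FPKM + 0.1) (0.050) and, over single libraries left out (-0.10 to 0.027), without WT_BLM replicate 3. That of Cyp2r1 turned positive with library totals alone (0.068), log2(FPKM + 1) (0.029), log2(FPKM + 0.1) (0.071) and, over single libraries left out (-0.18 to 0.13), when WT_BLM replicate 2 (0.038) or 3 (0.13) was dropped, likewise KO_BLM replicate 2 (0.082) or 4 (0.038). On the log2(FPKM + 1) scale, which understates low genes, Cyp2e1 was 1.19, Cyp4f15 0.97, Cyp8b1 0.40 and Cyp46a1 -0.56. With the replicate number as a block 11 members were higher and 3 lower, as without it. Libraries of the same number deviated together with correlations of -0.0922 to 0.0887, and those of different numbers with -0.148 to 0.140. Low correlations over all genes cannot settle whether the numbers pair the samples.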
